A study of Homo sapiens with 4 samples.

Results

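The hexosamine pathway and the enzymes of O-GlcNAc cycling were followed in MKN28, a human gastric adenocarcinoma cell line, as 10 genes out of the 23362 listed. The genes were GFPT1, GFPT2, GNPNAT1, PGM3, UAP1, UAP1L1, NAGK, GNPDA1, OGT and MGEA5. They were chosen by their place in the pathway, with the ratios of these libraries already known, so their values are a description. All 10 had 1 row in the table and passed the filter of 1 FPKM or more in some library, where FPKM is the fragment number scaled for transcript length and library size.

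Poly(A) RNA was sequenced as 1 library for each of 4 stable lines, made with a retroviral doxycycline-inducible system. The lines carried luciferase (Luc, the control), HA-tagged KIAA1324 (WT), KIAA1324 with its 3 N-glycosylation asparagines replaced by glutamine (3NQ), or KIAA1324 lacking the transmembrane domain (ΔTM). The sources used here do not say whether doxycycline was given before RNA was taken. Each group was 1 library, so differences could not be set against replicate spread, and neither errors nor p-values are given.

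KIAA1324 was at an FPKM of 2.86 in Luc, 11185 in WT and 8197 in 3NQ, but was listed at 0 in the ΔTM library. Taken at face value, that goes against the label. HEXA and GMPPA were also listed at 0, in every library, and whether the 0 of KIAA1324 is an absent transcript or a failed estimate was not tested. The ΔTM library is named here by its label only. The epithelial genes EPCAM, CDH1, KRT8, KRT18 and KRT19 had an FPKM of at least 233 in every library. KRT8 was lower in WT than in Luc by more than 1.5-fold, with a log2 ratio of −0.91, and so was KRT18, at −0.80. Of the immune markers, CD3E was listed at 0 throughout and PTPRC and CD14 were below 0.2. The stromal marker COL1A2 was at most 0.222, although COL1A1 was between 12.1 and 15.3. PECAM1 had no matching row. The summed FPKM lay between 560540 and 585104, and read depth is unknown.

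The hexosamine pathway diverts fructose-6-phosphate from glycolysis and, with glutamine, turns it into UDP-GlcNAc, the sugar donor for N-glycans, many other glycans and O-GlcNAc. GFPT1 and GFPT2 catalyse the first and rate-limiting step, GNPNAT1 acetylates the product, PGM3 moves its phosphate, and UAP1 couples it to UTP. NAGK returns salvaged GlcNAc to the pathway, and GNPDA1 runs against it toward fructose-6-phosphate. OGT attaches a single GlcNAc to serines and threonines of nuclear and cytoplasmic proteins, and the enzyme encoded by MGEA5, now named OGA, removes it. The stress transcription factor XBP1 is known to switch on GFPT1, PGM3 and GNPNAT1.

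The upstream sequences of GFPT1 and PGM3 are shown because these genes, with UAP1, were called in the same libraries. Each run is the 250 bases before the RefSeq start site on the GRCh38.p14 build, read 5′ to 3′ on the gene's strand, which is the minus strand for both. They lie at chr2:69387228-69387477 for GFPT1 and chr6:83193266-83193515 for PGM3. Capitals mark CCACG and CCAAT on either strand, the outer parts of the ER stress element.
GFPT1: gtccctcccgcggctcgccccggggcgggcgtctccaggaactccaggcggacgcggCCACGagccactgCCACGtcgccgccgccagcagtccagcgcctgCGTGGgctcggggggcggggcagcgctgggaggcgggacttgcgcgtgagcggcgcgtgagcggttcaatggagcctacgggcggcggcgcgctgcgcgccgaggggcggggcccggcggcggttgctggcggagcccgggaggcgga
PGM3: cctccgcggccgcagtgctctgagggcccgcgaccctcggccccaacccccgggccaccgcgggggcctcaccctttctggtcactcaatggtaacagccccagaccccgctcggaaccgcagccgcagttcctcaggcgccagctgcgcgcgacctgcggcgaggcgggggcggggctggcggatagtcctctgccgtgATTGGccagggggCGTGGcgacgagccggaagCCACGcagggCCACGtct

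An upstream sequence was found for 9 of the 10 genes, all but UAP1L1. None of the 9 held the whole ER stress element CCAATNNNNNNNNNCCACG, its second form ATTGGNCCACG, the core TGACGTG, the cyclic AMP element TGACGTCA or the ATF4-type element TGATGNAA, on either strand. Of 35116 such windows, 0.0740%, 0.0513%, 1.68%, 1.65% and 3.14% held these letters, so a window without them is usual. The part CCACG, looked for after the sequences were seen, was in GFPT1, PGM3, NAGK, GNPDA1 and OGT, and in 33.5% of all windows. The part CCAAT was in GFPT2, PGM3, UAP1 and NAGK, and in 32.0% of all windows. GFPT1 and PGM3 each held 3 copies of CCACG, and PGM3 held 1 of CCAAT. OGT, which was not called, also held more than 1 copy of CCACG. Copies were not counted over all windows, so nothing is read from these numbers. These matches are letters only and were not tested for binding.

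**Figure D1:**
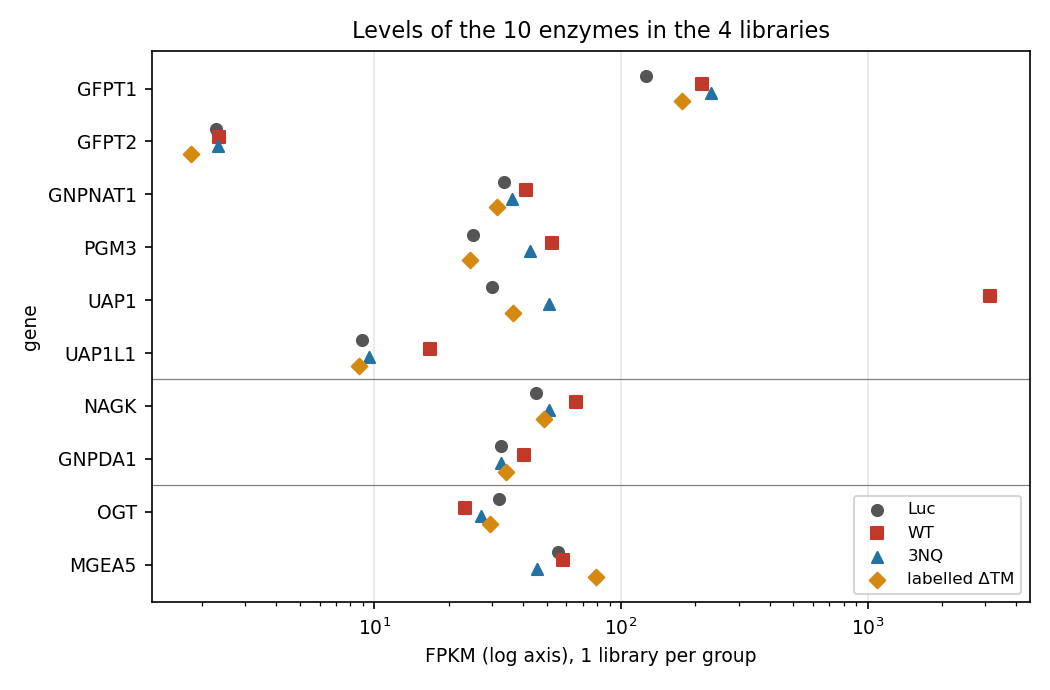
FPKM on a log axis of the 10 enzymes in the Luc, WT, 3NQ and ΔTM-labelled libraries, with 1 point per library; lines separate synthesis, salvage or return, and O-GlcNAc cycling. UAP1 in WT stands alone at 3126, GFPT1 lies between 126 and 231, and GFPT2 stays below 2.4.

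In control cells GFPT1 was the most abundant of the 10, and its FPKM of 126 was at or above that of 93.3% of the 11769 genes that reached 1 FPKM in some library. MGEA5 followed at 55.5 and NAGK at 45.1. GNPNAT1, GNPDA1, OGT and UAP1 lay close together, between 30.0 and 33.5. PGM3 was at 25.1, UAP1L1, a paralogue of UAP1, at 8.94 and GFPT2 at 2.28. FPKM is scaled for length, which allows these genes to be set side by side, but neighbours in this order cannot be told apart without replicates.

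Log2 ratios were taken on FPKM + 1, which understates the change of low genes, and a gene was called where the ratio reached 1.5-fold, or 0.58 on the log2 scale. Compared to Luc, 4 of the 10 enzymes were called higher in WT, where 3.36% of all tested genes were. None was called lower, where 3.34% of all genes were. In 3NQ, 3 were called higher (all genes 1.77%) and none lower (all genes 2.57%). In the ΔTM-labelled library, none was called higher (all genes 1.54%) or lower (all genes 1.57%). Because the genes were chosen with these ratios known, nothing is read from the counts. The 3 comparisons share the Luc library.

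The median log2 ratio of the 10 enzymes was 0.42 (WT), 0.090 (3NQ) and 0.017 (ΔTM-labelled). Over all tested genes it was −0.0049, −0.038 and −0.060. Without UAP1 the median in WT was 0.30. WT was the highest library for 7 of the 10 enzymes, as it was for 33.6% of all tested genes. The exceptions were GFPT1, highest in 3NQ, OGT, highest in Luc, and MGEA5, highest in the ΔTM-labelled library.

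**Figure D2:**
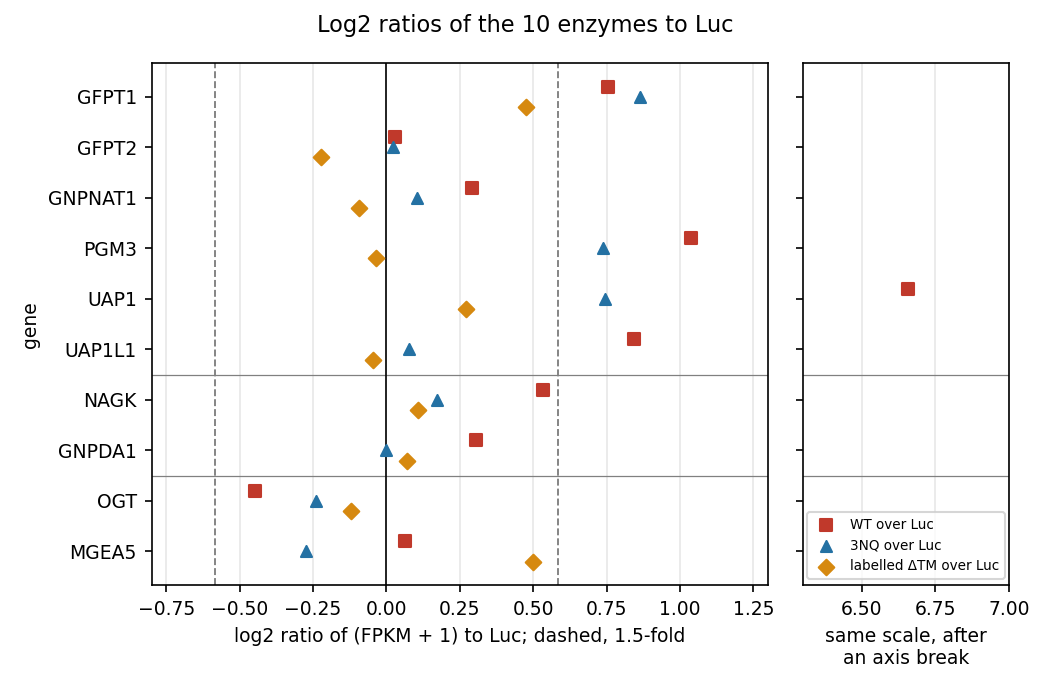
Log2 ratio of FPKM + 1 to Luc for each enzyme, in WT, 3NQ and the ΔTM-labelled library, with dashed lines at 1.5-fold and a break in the axis before UAP1 in WT. GFPT1, PGM3 and UAP1 lie past the line in WT and 3NQ, UAP1L1 in WT alone, and no enzyme in the ΔTM-labelled library.

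GFPT1 (ENSG00000198380, minus strand of GRCh37, chr2:69546905-69614382), the rate-limiting entry enzyme, had an FPKM of 126 (Luc), 214 (WT), 231 (3NQ) and 176 (ΔTM-labelled). Luc was thus the lowest of the 4 libraries. The log2 ratio to Luc was 0.75 in WT and 0.87 in 3NQ, which were called, and 0.48 in the ΔTM-labelled library, which was not. In WT, 1.61% of all tested genes had a ratio at least as high, in 3NQ 0.722% and in the ΔTM-labelled library 2.41%. Against the mean of 3NQ and the ΔTM-labelled library the log2 ratio in WT was 0.084, and the call was lost.

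GFPT2 (ENSG00000131459, chr5:179727690-179780387), which catalyses the same step, stayed at an FPKM of 2.28 (Luc), 2.35 (WT), 2.33 (3NQ) and 1.82 (ΔTM-labelled). None of these differences reached 1.5-fold. Within a library, the FPKM of GFPT1 was 55.4 times that of GFPT2 (Luc), 90.9 (WT), 99.0 (3NQ) and 97.0 (ΔTM-labelled).

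GNPNAT1 (ENSG00000100522, chr14:53241912-53258386), the acetyltransferase of the next step, had an FPKM of 33.5 (Luc), 41.2 (WT), 36.1 (3NQ) and 31.3 (ΔTM-labelled). It was called in no comparison. Its highest and lowest libraries, WT and the ΔTM-labelled library, differed 1.31-fold.

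PGM3 (ENSG00000013375, minus strand, chr6:83870869-83903655), the mutase that forms GlcNAc-1-phosphate, had an FPKM of 25.1 (Luc), 52.6 (WT), 42.6 (3NQ) and 24.5 (ΔTM-labelled). WT and 3NQ were high, while Luc and the ΔTM-labelled library were low and close to each other. The log2 ratio to Luc was 1.04 (WT), 0.74 (3NQ) and −0.037 (ΔTM-labelled). In WT, 0.595% of all tested genes had a ratio at least as high. Relative to GNPNAT1, the FPKM of PGM3 was 0.750 (Luc), 1.28 (WT), 1.18 (3NQ) and 0.781 (ΔTM-labelled).

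UAP1 (ENSG00000117143, plus strand, chr1:162531321-162569627), which makes UDP-GlcNAc, was listed at an FPKM of 30.0 (Luc), 3126 (WT), 51.0 (3NQ) and 36.4 (ΔTM-labelled). The WT value was 61.4 times the next highest and made UAP1 the gene of rank 7 by FPKM in that library, against rank 3795 in Luc. The log2 ratio in WT was 6.66, and 3 genes in all, UAP1 included, had a ratio that high. In 3NQ the log2 ratio was 0.75, past the threshold, and in the ΔTM-labelled library 0.27.

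None of the neighbours looked up was listed near the WT value of UAP1. UHMK1, the nearest gene upstream in the table, was at 29.8 FPKM in Luc and 31.0 in WT. Downstream, HSD17B7 was at 24.0 in Luc and 19.4 in WT. DDR2, also downstream, was at 0.0548 (Luc), 0.307 (WT), 0.129 (3NQ) and 0.0817 (ΔTM-labelled). WT was thus its highest library too, but these values are too low for the difference to be read. Values far above those of the other libraries occurred for other genes too. Among all listed genes, 16 reached an FPKM of 100 in 1 library at 10 or more times the next, of which Luc held 6, WT 4, 3NQ 2 and the ΔTM-labelled library 4. UAP1 had the highest FPKM of these 16, followed by NIPAL2 at 2403 in the ΔTM-labelled library. The annotation on GRCh37 gives UAP1 5 transcripts of 128 to 3559 bases, of which the 2 coding ones have 3508 and 3559. The table has 1 value a gene, and which transcript carried the WT value was not tested. Without UAP1, 3 of 9 enzymes were called higher in WT against Luc (all genes 3.36%).

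UAP1L1 (ENSG00000197355, plus strand, chr9:139971953-139978991), the paralogue of UAP1, had an FPKM of 8.94 (Luc), 16.8 (WT), 9.49 (3NQ) and 8.64 (ΔTM-labelled). WT stood apart from 3 libraries that lay within 1 FPKM of each other. The log2 ratio to Luc was 0.84 (WT), 0.077 (3NQ) and −0.044 (ΔTM-labelled). In WT, 1.17% of all tested genes had a ratio at least as high.

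**Figure D3:**
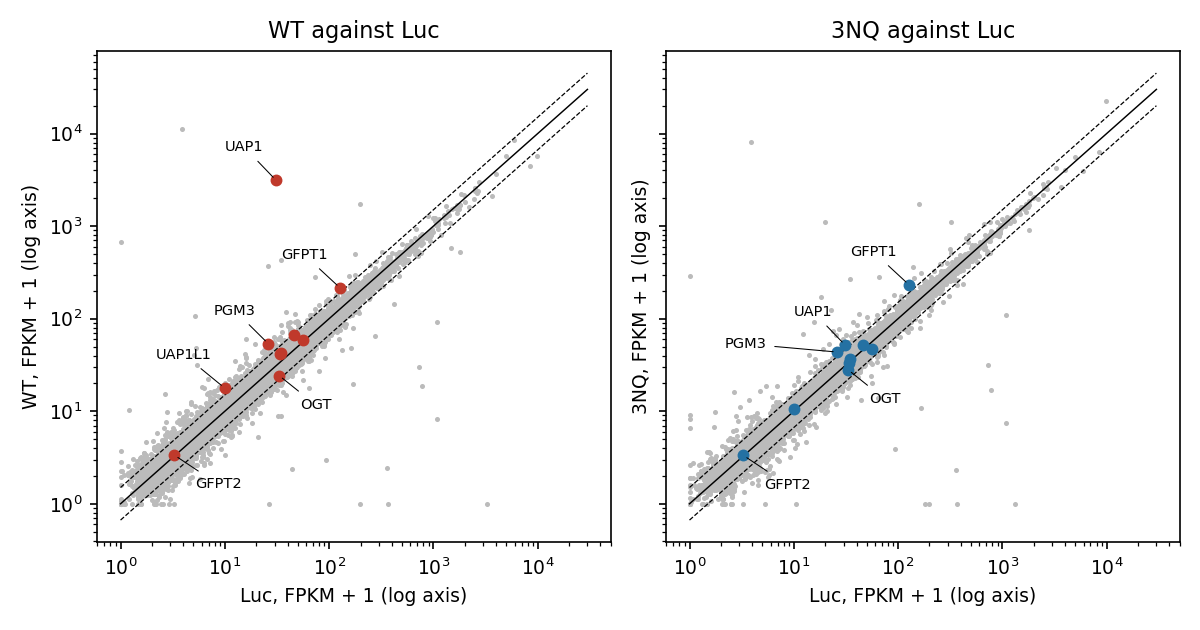
FPKM + 1 of WT (left) and 3NQ (right) against Luc on log axes, with the 11769 tested genes in grey, the 10 enzymes in colour, a solid line of equality and dashed lines at 1.5-fold. In WT, GFPT1, PGM3 and UAP1L1 lie just above the upper line and UAP1 far above it, while GFPT2 lies near equality and OGT below it in both.

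The salvage kinase NAGK (ENSG00000124357, chr2:71291474-71306935) had an FPKM of 45.1 (Luc), 65.8 (WT), 51.0 (3NQ) and 48.7 (ΔTM-labelled). WT was the highest, and its log2 ratio of 0.53 was just short of the threshold. GNPDA1 (ENSG00000113552, chr5:141371314-141392606), the deaminase that works against GFPT1, had an FPKM of 32.5 (Luc), 40.4 (WT), 32.5 (3NQ) and 34.2 (ΔTM-labelled). It was called nowhere. The FPKM of GFPT1 relative to GNPDA1 was 3.88 (Luc), 5.29 (WT), 7.11 (3NQ) and 5.15 (ΔTM-labelled).

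OGT (ENSG00000147162, plus strand, chrX:70752933-70795747), the O-GlcNAc transferase, had an FPKM of 32.1 (Luc), 23.3 (WT), 27.1 (3NQ) and 29.5 (ΔTM-labelled). It was the only one of the 10 enzymes with a negative log2 ratio in all 3 lines, at −0.45 in WT, −0.24 in 3NQ and −0.12 in the ΔTM-labelled library, and none was called. In WT, 6.84% of all tested genes had a ratio as low or lower.

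MGEA5 (ENSG00000198408, minus strand, chr10:103544200-103578696), the O-GlcNAc hydrolase, had an FPKM of 55.5 (Luc), 58.1 (WT), 45.7 (3NQ) and 78.9 (ΔTM-labelled). Its log2 ratio was 0.065 (WT), −0.27 (3NQ) and 0.50 (ΔTM-labelled), so that 3NQ and the ΔTM-labelled library lay on opposite sides of Luc. None reached 1.5-fold. In the ΔTM-labelled library 2.13% of all tested genes had a ratio at least as high, and MGEA5 had the highest ratio of the 10 enzymes there. Within a library, the FPKM of OGT relative to MGEA5 was 0.579 in Luc, 0.592 in 3NQ, 0.401 in WT and 0.374 in the ΔTM-labelled library.

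The WT line was also compared with 3NQ and with the ΔTM-labelled library, without Luc. Against 3NQ, 2 of the 10 enzymes were called higher in WT (all genes 2.89%) and none lower (all genes 1.58%). These were UAP1, with a log2 ratio of 5.91, and UAP1L1, with 0.77, and without UAP1 the count was 1. GFPT1 had a log2 ratio of −0.11 and PGM3 of 0.30 in this comparison. Against the ΔTM-labelled library, 3 were called higher (all genes 4.25%) and none lower (all genes 2.91%). These were PGM3 at 1.07, UAP1 at 6.38 and UAP1L1 at 0.89, whereas GFPT1 was at 0.28, and without UAP1 the count was 2. The background depends on the scaling of the libraries. Calls were higher in 59.3% of cases for WT against the ΔTM-labelled library, and in 46.2% after upper-quartile rescaling. The same rescaling moved that share from 64.6% to 54.6% for WT against 3NQ, from 40.7% to 50.9% for 3NQ against Luc and from 49.5% to 59.6% for the ΔTM-labelled library against Luc. It moved no call of the 10 enzymes.

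Genes around the pathway were followed with lists drawn up by their role. These lists were chosen with earlier results of these data known, so nothing is read from their counts. Over all tested genes, 3.36% were called higher in WT, 1.77% in 3NQ and 1.54% in the ΔTM-labelled library. The shares called lower were 3.34%, 2.57% and 1.57% in the same order. Of 15 other genes of amino sugar metabolism, 12 passed the filter on low values. HK2 and RENBP stayed below 0.6 and HEXA was listed at 0 in every library. None of the 12 was called in WT or the ΔTM-labelled library. In 3NQ 1 was called higher, NANS, which makes sialic acid, at an FPKM of 57.3 against 36.4 in Luc and a log2 ratio of 0.64. GNPDA2, the paralogue of GNPDA1, was at 6.52 in Luc and 4.08 in 3NQ, a log2 ratio of −0.57 that was not called. The upstream enzymes HK1 and GPI had log2 ratios between −0.12 and 0.14. The median of the list was −0.052 (WT), −0.12 (3NQ) and −0.0012 (ΔTM-labelled).

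Of 15 transporters and enzymes that use UDP-GlcNAc, 11 passed the filter. HAS2 was listed at 0 in every library, and HAS1 and HAS3 were at most 0.409. The N-glycan enzyme MGAT2 was at most 0.071, and whether that is an absent transcript or a failed estimate was not tested. ALG14, a subunit of the second enzyme of the N-glycan precursor, was called higher in WT, at an FPKM of 17.4 against 10.1 in Luc and a log2 ratio of 0.73, and its log2 ratio was 0.52 in 3NQ and 0.53 in the ΔTM-labelled library. The WT call was lost with a pseudocount of 5, at 0.57, and after rescaling by the median of ratios the ΔTM-labelled library reached the threshold, at 0.59. MGAT5, a branching enzyme of N-glycans, was called lower in the ΔTM-labelled library, at 28.03 against 43.7 in Luc and a log2 ratio of −0.62, and this call was lost under both rescalings, at −0.56 and −0.57, and with a pseudocount of 5, at −0.56. DPAGT1, the first enzyme of the N-glycan precursor, lay between 46.4 and 51.2. The Golgi transporter SLC35A3 lay between 89.4 and 102. The median of the list was 0.031 (WT), 0.036 (3NQ) and 0.024 (ΔTM-labelled).

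Of 17 enzymes that make or recycle other nucleotide sugars, 16 passed the filter and GMPPA was listed at 0 throughout. UGDH, which oxidises UDP-glucose to UDP-glucuronic acid, was the only gene of the list called with a pseudocount of 1 and no rescaling, higher in WT and 3NQ. Its FPKM was 29.3 (Luc), 51.7 (WT), 45.5 (3NQ) and 44.3 (ΔTM-labelled). Its log2 ratio reached 0.80 in WT and 0.62 in 3NQ, the latter 0.56 with a pseudocount of 5. In the ΔTM-labelled library it was 0.58, just under the threshold, but 0.60 with a pseudocount of 0.1 and 0.64 under both rescalings. GMPPB, which makes GDP-mannose, was at 6.57 in Luc and 10.3 in the ΔTM-labelled library, and its log2 ratio of 0.58 was also just under the threshold, with 0.65 at a pseudocount of 0.1, 0.41 at a pseudocount of 5 and 0.64 under both rescalings. TSTA3, which makes GDP-fucose, had a log2 ratio of 0.54 in WT and 0.37 in 3NQ, short of the threshold. The median of the list was 0.036 (WT), −0.016 (3NQ) and 0.064 (ΔTM-labelled).

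**Figure D4:**
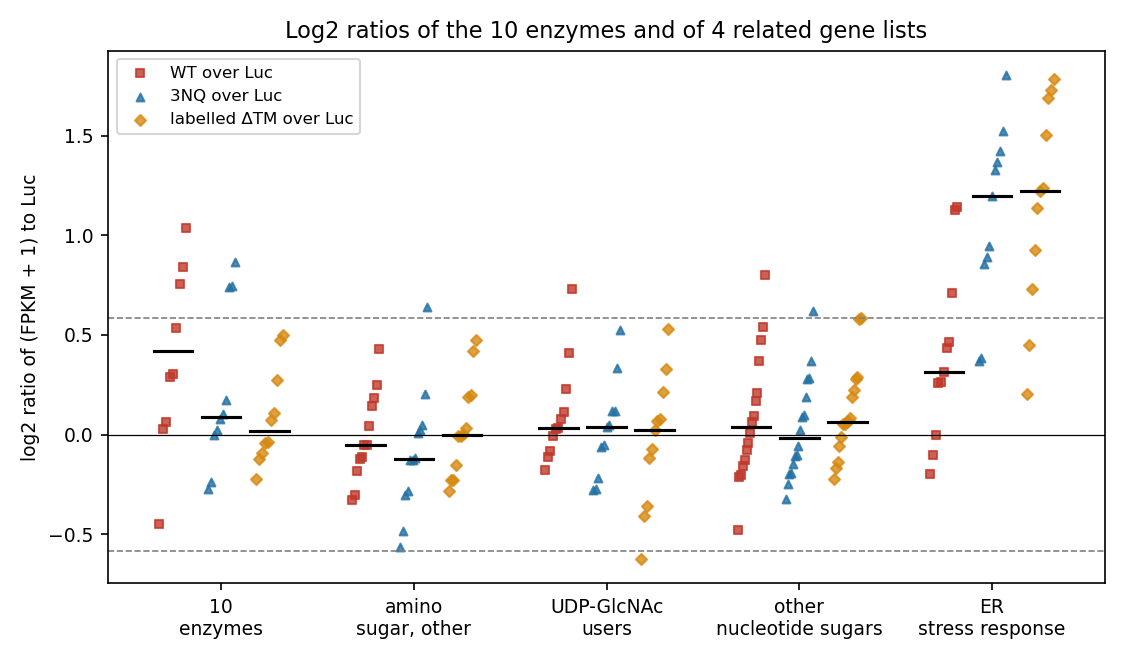
Log2 ratio of FPKM + 1 to Luc for the 10 enzymes and for the genes of the 4 related lists that passed the filter, with 1 point per gene, black bars at the medians and dashed lines at 1.5-fold. UAP1 in WT, at 6.66, lies outside the plotted range but enters its median. The ER stress genes lie highest in 3NQ and the ΔTM-labelled library, with medians of 1.20 and 1.22, while the 10 enzymes have their highest median in WT.

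The 11 genes of the endoplasmic reticulum stress response were set beside the enzymes because XBP1 is known to act on some genes of each. The 11 were not split by the factor that controls them, so they are not a measure of XBP1 output. They too were chosen with earlier results of these data known, so nothing is read from their counts. In WT 3 of the 11 were called higher (all genes 3.36%) and none lower (all genes 3.34%), with a list median of 0.32. In 3NQ (all genes 1.77%) and in the ΔTM-labelled library (all genes 1.54%) 9 each were called higher, with medians of 1.20 and 1.22. HSPA5, the main chaperone of this compartment, had an FPKM of 318 (Luc), 521 (WT), 1114 (3NQ) and 1028 (ΔTM-labelled). By the same threshold, 6 of the 11 were lower in WT than in 3NQ (all genes 1.58%), and 6 were lower in WT than in the ΔTM-labelled library (all genes 2.91%). DNAJB9, a co-chaperone of HSPA5, had an FPKM of 13.0 (Luc), 29.8 (WT), 39.2 (3NQ) and 25.5 (ΔTM-labelled). HERPUD1, a degradation factor, had an FPKM of 41.2 (Luc), 90.9 (WT), 112 (3NQ) and 91.8 (ΔTM-labelled). HSPA5, DNAJB9 and HERPUD1 were thus higher than in Luc in all 3 lines. HSP90B1, PDIA4, SDF2L1, SEL1L, CRELD2 and HYOU1, chaperones, folding factors and a degradation adaptor of this compartment, were called in 3NQ and the ΔTM-labelled library, with log2 ratios between 0.73 and 1.78, and not in WT, where they lay between −0.20 and 0.44. XBP1 itself was called in none, at 83.5, 116, 109 and 114 in the same order. With 1 value a gene, spliced forms of XBP1 could not be told apart, and its activity was not tested. EDEM1 was called in none either, with log2 ratios of 0.32 (WT), 0.37 (3NQ) and 0.21 (ΔTM-labelled).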

How the data were processed

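The authors filtered the reads for undetermined and low-quality bases, aligned them to GRCh37 with TopHat and estimated genes of Ensembl release 72 with Cufflinks 2.1.1, with non-coding regions masked and multi-mapped reads and fragment bias corrected for. The deposited values are FPKM, already scaled for library size and length by the authors, with 1 column per library and no counts, intervals or p-values, so the precision of a single value is unknown.

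From these, log2 ratios with a pseudocount of 1 were computed for 11769 genes that reached 1 FPKM in some library, using Python 3.11.15, numpy 2.4.6 and pandas 2.3.3. Figures were drawn with matplotlib 3.10.9. A gene was called at 1.5-fold. With 1 library per group no test was made. The members and lists were chosen with earlier results of these data known. Named were the 10 enzymes, KIAA1324, list genes called against Luc in any library, the genes nearest in profile to the 3 enzymes of widest range, and marker genes. Others (the neighbours of UAP1, NIPAL2, and list genes that were not called) were chosen after their values were seen. Where a symbol repeats (166 surplus rows), the row with the higher mean was used, and no enzyme was affected. Upstream sequences came from RefSeq and transcript lengths from GENCODE mapped to GRCh37. Alternatives were other pseudocounts, filters, a 2-fold threshold, 2 rescalings, omission of UAP1 and other controls.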

Additional observations from a re-analysis of the deposited data

How the results depend on the processing

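No paired analysis was possible because each group had 1 library. Under pseudocounts of 0.1 and 5 and both rescalings, all 120 recomputed log2 ratios of the 10 enzymes to Luc kept their side of the threshold. The filters on low values cannot change a ratio and are not counted. They can change a median. That of the enzymes in WT against Luc was 0.42, and 0.53 with a filter of 5 FPKM in some library. It was 0.28 against the mean of 3NQ and the ΔTM-labelled library, and 0.30 against the mean of the other 3 libraries. With a 2-fold threshold the enzymes called against Luc were 2 in WT (PGM3 and UAP1), 0 in 3NQ and 0 in the ΔTM-labelled library. In WT, 1 was called against 3NQ (UAP1) and 2 against the ΔTM-labelled library (PGM3 and UAP1). At 1.5-fold and without UAP1, 1 was called higher in WT against 3NQ (all genes 2.89%). With the mean of the other 3 libraries as the control, which for 3NQ and the ΔTM-labelled library includes the WT value of UAP1, UAP1 reversed, to a log2 ratio of −1.56 in 3NQ and −2.20 in the ΔTM-labelled library. Under that control 1 enzyme was called in 3NQ (UAP1, lower), where GFPT1 and PGM3 lost their calls at 0.46 and 0.41. In the ΔTM-labelled library 2 were called, UAP1 and PGM3, both lower, with PGM3 at −0.63. In WT, GFPT1 lost its call at 0.31. The share of all genes was not taken at 2-fold or under this control, so nothing is read from these counts. Read depth and replicate spread are unknown for every value.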

Other observations

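Among 8677 genes that reached 5 FPKM in all 4 libraries, the genes with the profile nearest to that of the enzymes of widest range were looked up by the Euclidean distance of centred log2(FPKM + 1). The nearest to PGM3 were HDAC9 (distance 0.13), APCDD1L-AS1 (0.16) and ZSWIM8 (0.19). HDAC9 had an FPKM of 5.82 (Luc), 14.6 (WT), 11.7 (3NQ) and 5.996 (ΔTM-labelled). The nearest to UAP1L1 were SAT2 (0.055), HECTD3 (0.076) and TUBB2A (0.084), and SAT2 had an FPKM of 9.37 (Luc), 17.8 (WT), 10.5 (3NQ) and 9.37 (ΔTM-labelled). None of the 8677 came close to UAP1, for which TMEM125 (2.26), NEDD4L (2.57) and PRR11 (3.73) were nearest. Genes below 5 FPKM in any library were not searched, so nearer ones may lie among those. Likeness over 4 libraries is a description only.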
